A study of Homo sapiens with 4 samples.

Results

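The RAB genes encode a family of small GTPases, and their transcripts were followed in RNA immunoprecipitated with NSUN2 from PANC-1 cells. A gene was taken as a member when its symbol was RAB followed by a number, with at most a letter and a further digit, and when the deposited annotation gave it as protein-coding. By this rule 51 RAB genes had a peak in at least 1 of the 2 deposited peak lists, of 15016 genes with a symbol and a peak and 12396 of them protein-coding. RAB-like genes, antisense transcripts, pseudogenes and readthrough genes were left out by the rule.

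NSUN2 is a methyltransferase that places 5-methylcytosine on RNA, and RIP-seq reads out the RNA that an antibody against it brings down. PANC-1, an established human cell line of pancreatic ductal adenocarcinoma, is given as wild-type in the labels. Cells were given sodium lactate at 30 mM or ddH2O, the vehicle, for 24 h. Each condition had 1 anti-NSUN2 immunoprecipitation (IP) library and 1 input library without antibody, 4 in all, and values below therefore carry no replicate error. The ductal keratins were present in both lists, with up to 2737 lactate and 8085 ddH2O reads in a window of KRT18 and 1592 and 4024 in one of KRT8, while the acinar and islet markers PRSS1, CPA1, CELA3A, AMY2A, INS, GCG and SST had no peak. Epithelial EPCAM and CDH1 had a peak in the ddH2O list alone, with at most 4 reads in a library, and VIM had 615 and 1486 reads in a window. Of markers of other cells, CD3E, DCN and PECAM1 had no peak, PTPRC had 3 reads, all with ddH2O, and CD68 and COL1A1 held 30 and 62 and 47 and 50 reads.

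RAB proteins cycle between a GDP-bound form, held in the cytosol by GDI, and a GTP-bound form on membranes, and each marks particular compartments. Exchange factors load GTP, GTPase-activating proteins promote its hydrolysis, and the GTP-bound form recruits effectors such as tethers and motor adaptors. In secretory epithelia of the kind the pancreas holds, members of the RAB3 and RAB27 subfamilies are known for their part in regulated exocytosis.

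A ddH2O peak on RAB8A reached upstream of the gene's start site. RAB8A, which directs vesicles to the plasma membrane and the primary cilium, lies on chromosome 19 of GRCh38, and the peak, annotated as exonic at chr19:16111805-16112094, began before the RefSeq start site at 16111889. It had a fold enrichment over input of 4.85 and a q-value of 0.000218. The 250 bases upstream of the start (chr19:16111639-16111888, plus strand, RefSeq sequence of GRCh38.p14) are shown because the peak covers 84 of them, which are in capitals.
RAB8A upstream: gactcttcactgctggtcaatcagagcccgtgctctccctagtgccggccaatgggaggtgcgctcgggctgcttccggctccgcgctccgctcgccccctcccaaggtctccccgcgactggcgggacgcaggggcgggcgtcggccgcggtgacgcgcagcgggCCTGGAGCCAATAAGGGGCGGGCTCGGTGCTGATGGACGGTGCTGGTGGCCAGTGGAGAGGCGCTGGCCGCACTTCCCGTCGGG
The promoter window of RAB8A, 300 bases that include 50 after the start, had a GC content of 68.3%, against a median of 58.7% over 35116 promoter windows in RefSeq. The window of reads around this peak held 2 lactate and 7 ddH2O reads and was not called. Of the 50 RAB genes with a matched promoter window, this was the single one crossed by a peak at the gene's outermost start, and RAB2B was crossed at an alternative start by a ddH2O peak of 1.82-fold.

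Peaks were found on most of the family. Of the 63 protein-coding RAB genes in RefSeq, 51 (81.0%, 95% Wilson interval 69.6 to 88.8%) had a peak in either list, against 60.9% of 20056 protein-coding genes. The lactate list held 126 peaks on 37 RAB genes and the ddH2O list 261 peaks on 48, out of 48104 and 95785 peaks in all. Both lists named 34 genes. RAB4B, RAB5C and RAB40B had a peak with lactate alone, each with a q-value of 0.979 or 1, and the window of RAB40B held no read in either library. Another 14 had one with ddH2O alone, namely RAB2B, RAB3C, RAB4A, RAB6B, RAB9B, RAB13, RAB17, RAB20, RAB32, RAB36, RAB37, RAB39B, RAB40A and RAB42, and 10 of these had a peak with a q-value below 0.05. The list for ddH2O was longer throughout the transcriptome, and a gene in 1 list alone is not thereby shown to differ. By list, 58.7% of RAB genes had a peak with lactate and 76.2% with ddH2O, against 47.1% and 58.4% of protein-coding genes. The share of all genes with a peak in 1 list alone was not counted, so nothing is read from the one-list counts. RAB3A, RAB6C, RAB6D, RAB7B, RAB11B, RAB19, RAB25, RAB33A, RAB33B, RAB38, RAB41 and RAB44 had no peak. All intervals given here cover counting error only, and reads copied by PCR are not independent molecules.

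**Figure D1:**
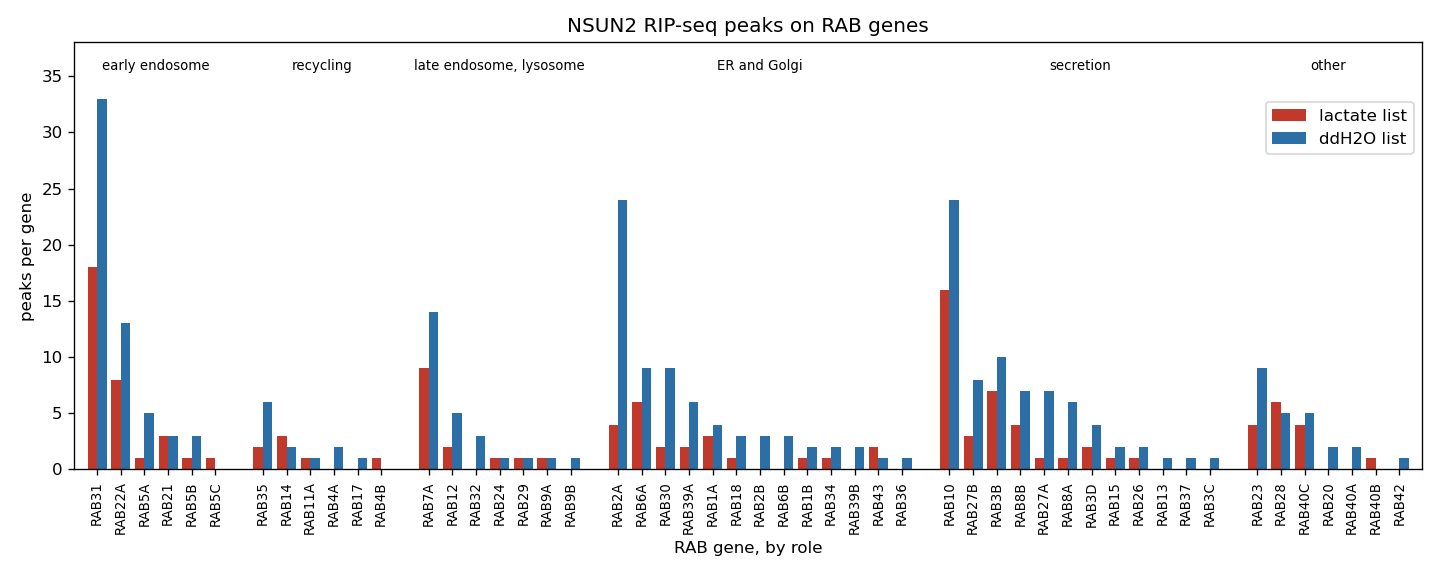
Number of peaks (vertical axis) on each of the 51 RAB genes (horizontal axis, grouped by role) in the lactate list (red) and the ddH2O list (blue). RAB31 has the most in both, 18 and 33, RAB10 has 16 and 24, and RAB2A has 4 and 24.

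A few genes carried many of the merged peaks. The peaks of both lists, joined by the authors where they overlapped, gave 306 merged peaks on RAB genes out of 116484, and each has a window of 2000 bases in which reads were counted. RAB31 had 39 merged peaks, RAB10 31, RAB2A 24, RAB22A 16, RAB7A 16, and RAB23 and RAB6A 11 each, while 13 genes had 1. The first 6 of these genes held 137 (44.8%) of the merged peaks. The number rose with the length of the gene (Spearman's rho 0.58, Pearson's r 0.52 against log10 of the span, across 51 genes, which are not independent replicates). The median RAB gene had 12.1 merged peaks per 100 kb of span, and the median protein-coding gene had 13.0.

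RAB peaks lay mostly in introns. Of the lactate peaks, 93 (73.8%, Wilson interval 65.5 to 80.7%) were intronic, 24 (19.0%, 13.1 to 26.8%) lay in 3′ UTRs and 9 (7.14%, 3.80 to 13.0%) were annotated as exon. For the peaks of all protein-coding genes the shares were 61.5%, 18.1% and 18.8%. No lactate peak lay in a 5′ UTR, a share with a Wilson interval of up to 2.96%. In the ddH2O list 177 (67.8%, 61.9 to 73.2%) were intronic, 44 (16.9%, 12.8 to 21.9%) exonic and 36 (13.8%, 10.1 to 18.5%) in 3′ UTRs, against 61.2%, 21.0% and 15.8%. By these counting intervals, the exonic share of the lactate peaks lay below that of all protein-coding genes, and that of the ddH2O peaks did not. The intron shares of both lists lay above those of all protein-coding genes. The 3′ UTR shares were not distinguishable from theirs. Several peaks of a gene are not independent, so these intervals are too narrow. The regions are those of the deposited annotation, which can differ for the same site. Overlapping peaks on RAB18 and on RAB40C were given as 3′ UTR with lactate and as exon with ddH2O. The split between exon and 3′ UTR is therefore uncertain, here and in the calls below. A 3′ UTR peak was found on 17 RAB genes with lactate and on 19 with ddH2O, of which 10 were the same.

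The enrichment over input was like that of other genes. The median fold of IP over input was 3.47 for RAB peaks with lactate (3.24 for protein-coding genes) and 3.03 with ddH2O (3.03). A q-value below 0.05 was given to 48.4% of the lactate and 52.5% of the ddH2O RAB peaks, and to 44.6% and 50.9% of the peaks of protein-coding genes. Of the lactate RAB peaks, 61.9% shared 1 base or more with a ddH2O peak, and 30.7% of the ddH2O RAB peaks shared 1 or more with a lactate peak, against 58.5% and 29.9% over protein-coding genes.

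The 2 IP libraries were then compared window by window. Each ratio below is the log2 ratio of the deposited read densities, lactate over ddH2O, with the scaling set by MAnorm and 1 read added to each library. A window was called when the ratio exceeded 1 or lay under -1 and a two-sided exact binomial P on its reads was below 0.05. This test compares 2 libraries, not the conditions. The IP reads were not divided by input reads here, so a different level of an RNA and a different bound share of it cannot be told apart, nor can fewer cells and less RNA per cell. All windows outside MT-RNR2 and MALAT1 held 1945000 lactate and 3536821 ddH2O reads, a 1.82-fold difference in depth. Scaling by these sums (library sums below) moved the median log2 ratio of all windows from -0.50 to 0.07, so the calls with library sums are given beside those with MAnorm.

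Of the 306 RAB windows, 27 (8.82%) were called higher with lactate, where 6.0% of all windows were, and 62 (20.3%) were called lower, where 19.6% were. With library sums, 55 (18.0%) were called higher against 16.7% of all windows, and 18 (5.88%) lower against 5.16%. The share of higher among the called windows thus went from 30.3% to 75.3% with the scaling. Of the 27 higher calls 26 held with library sums, of the 62 lower calls 18 did, and none changed direction. A window entered the comparison through a peak in either IP library, from the same reads that were then compared. The 48 windows from lactate peaks alone gave 18 of the higher calls (37.5%, against 24.1% of all such windows) and no lower one (against 0.86%). Those 18 were 3 windows of RAB10, 2 each of RAB6A, RAB28 and RAB31, and 1 each of RAB4B, RAB5A, RAB5C, RAB7A, RAB8B, RAB21, RAB22A, RAB40C and RAB43. The 181 from ddH2O peaks alone gave 56 of the lower calls (30.9%, against 30.1% of all such windows) and 2 higher ones (1.10%, against 0.52%). With library sums the windows from lactate peaks alone gave 34 higher calls (70.8%, against 63.2%) and no lower one. Those from ddH2O peaks alone gave 18 lower calls (9.94%, against 7.89%) and 4 higher ones (2.21%, against 2.54%). The direction of a call in a window from 1 list was thus largely set by how the window entered, so the ratios and intervals of such windows are a description, and their P was used only for the call. The 77 windows from peaks in both lists gave 7 higher calls (9.09%), where 5.97% of all such windows were higher, and 6 lower ones (7.79%), where 6.79% were. With library sums these 77 windows gave 17 higher calls (22.1%, against 17.1% of all such windows) and no lower one (against 1.98%). The median RAB log2 ratio was -0.37 with MAnorm and 0.25 with library sums, and -0.25 and 0.23 with windows at 0 reads in 1 library set at a floor of 3 reads and windows that do not exceed the floor left out. The -0.37 is also the MAnorm ratio of a window with no read in either library.

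Depth limited many of these windows. The median RAB window held 6 lactate and 8 ddH2O reads, 53 windows held no lactate read, 25 held no ddH2O read and 10 held none in either. Among the 116 windows (37.9%) with at least 20 reads in both libraries together, 12 (10.3%) were called higher, against 6.78% of all such windows, and 26 (22.4%) lower, against 17.0%. Those windows lay on 34 of the 51 genes. Moreover, 151 windows (49.3%) overlapped the window of another RAB peak, so neighbouring calls can rest on the same reads. Another RefSeq gene spans 41 of the RAB merged peaks, and since the library kit does not mark strand, reads of overlapping genes cannot be told apart.

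**Figure D2:**
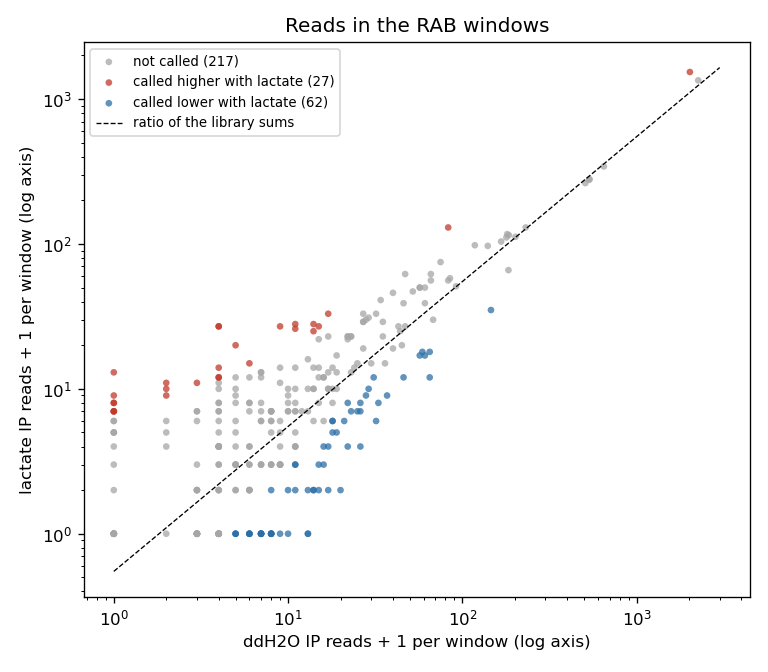
Lactate IP reads against ddH2O IP reads per window (both plus 1, log axes) for the 306 RAB windows, coloured by call with MAnorm scaling, with the ratio of the library sums dashed. The 27 windows called higher lie above the line and the 62 called lower lie below it, and most hold few reads.

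A higher window was found on 15 RAB genes and a lower one on 22, with 5 genes, RAB2A, RAB8B, RAB10, RAB22A and RAB31, holding both, and 19 held neither. These were 29.4%, 43.1%, 9.80% and 37.3% of the 51 genes, against 23.9%, 52.2%, 17.7% and 41.6% of 12378 protein-coding genes with a window, which had a mean of 7.70 windows where RAB genes had 6. With library sums 22 RAB genes (43.1%) had a higher window and 14 (27.5%) a lower one, 5 had both and 20 neither, against 45.4% and 23.1% of protein-coding genes with a higher and a lower one. Of 38 RAB genes with more than 1 window, 26 (68.4%) had ratios of both signs with MAnorm and 25 (65.8%) with library sums, against 74.4% and 79.5% of such protein-coding genes. These signs include those of the 10 RAB windows with no read in either library, which are -0.37 with MAnorm and 0.86 with library sums. RAB4A and RAB8A had both signs with library sums only through such a window. Introns held 22 of the higher and 37 of the lower calls, 3′ UTRs 3 and 14, windows annotated as exon 2 and 10, and 5′ UTRs 0 and 1. With library sums introns held 48 higher and 8 lower calls, 3′ UTRs 4 and 4, windows annotated as exon 3 and 6 and 5′ UTRs none. The intron calls were 22.3% and 3.72% of the RAB intron windows, against 21.4% and 4.49% of those of protein-coding genes, so the change of direction with the scaling was shared by introns in general. Of the intron windows 10.2% were called higher and 17.2% lower with MAnorm, against 8.15% and 19.0% of those of protein-coding genes, and of the exon windows 4.44% and 22.2%, against 2.17% and 20.2%. In 3′ UTRs 14 of 42 windows (33.3%) were called lower, on 9 genes, against 17.3% of the 3′ UTR windows of protein-coding genes, and 3 (7.14%) were called higher, against 2.62%. With library sums 4 of these 42 were called lower and 4 higher, where 832 and 1124 of 13821 windows of protein-coding genes were.

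Endosomal entry and early sorting are the field of RAB5, RAB21, RAB22A and RAB31. Their 6 genes held 71 merged peaks, of which 9 were called higher and 14 lower (18 and 2 with library sums). RAB31, which acts between the trans-Golgi network and endosomes, had the densest windows of the family. Its window around the exon peak at chr18:9859135-9859682 held 1537 lactate and 2022 ddH2O reads, a log2 ratio of 1.05 with an exact binomial P of 1.77e-97, which was called higher, whereas the ratio with library sums was 0.47 and was not called. The window of its 3′ UTR peak at chr18:9860638-9861179 held 1346 and 2257 reads (0.70, with library sums 0.12) and that at chr18:9862297-9862526 held 262 and 507 (0.11, with library sums -0.09), neither of them called. With library sums the 3 densest windows of RAB31 thus stayed within the threshold, and the call in the exon window depended on the scaling.

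Over its 39 windows RAB31 had 5 higher and 11 lower calls with MAnorm, and 9 and 2 with library sums. Overlapping windows around chr18:9720911-9721258 and chr18:9721300-9721499 held the same 26 lactate and 3 ddH2O reads, a log2 ratio of 2.95 (library sums 3.62), and came from 1 peak of each list. Without the added read the ratio was 3.31, with an exact 95% interval of 1.61 to 5.68. The window at chr18:9740734-9741434 held 19 and 4 reads (2.19, with library sums 2.86). In the other direction, the window of the exon peak at chr18:9815017-9815378 held 11 lactate and 64 ddH2O reads (-2.00, with library sums -1.57), and that at chr18:9825625-9825866 held 7 and 32 (-1.74, with library sums -1.18), both from peaks of the ddH2O list alone. These windows, which were called under both scalings, have the high library on opposite sides within 1 gene. The peak with the highest fold of the role group in both lists was also intronic in RAB31, at 12.1-fold over input with lactate and 22.0-fold with ddH2O, and its window held 61 and 46 reads with a ratio of 0.997 that did not pass the threshold (library sums 1.26, called higher).

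RAB22A, which recruits early endosomal proteins, had 8 lactate and 13 ddH2O peaks. Its 3′ UTR window at chr20:58366299-58366855 held 114 and 184 reads (0.15, with library sums 0.18) and was not called. Among its 16 windows 1 was called higher and 2 lower, and with library sums 3 were called higher and none lower. RAB5C, 1 of the 3 RAB5 paralogs that drive early endosome fusion, had a single peak, in the lactate list, with 26 and 14 reads (1.21, with library sums 1.71, called higher). RAB5A had 8 lactate reads and no ddH2O read in an intron window that was called higher under both scalings, and RAB5B had 17 and 64 in one that was called lower (-1.37, with library sums -0.99, not called). With library sums RAB5A had 1 more higher call, on 9 and 4 reads (1.86), RAB5B had 1 higher call, on 11 and 5 reads (1.86), and none of the 3 genes had a lower one.

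RABs of recycling endosomes, which return cargo to the surface, had a peak on 6 of 8 genes and 15 merged peaks, of which 1 was called higher and 4 lower (2 and 1 with library sums). RAB35, a regulator of fast recycling, had the highest fold of this group in both lists, 4.79 and 7.89. Of its 6 windows 3 were called lower, and the 3′ UTR window at chr12:120096188-120096646 (11 and 45 reads, -1.54) was also called lower with library sums (-1.08). RAB14, which acts between endosomes and the Golgi, had its densest window at chr9:121181291-121181674, with 103 and 166 reads (0.13, with library sums 0.18) and no call. RAB17, found in polarised epithelia, had a 3′ UTR window at chr2:237574216-237574926 with 4 lactate and 18 ddH2O reads (-1.74), which was called lower but not with library sums (-1.06). RAB4B was called higher on 6 lactate reads and no ddH2O read, in a 3′ UTR that RefSeq also gives to the readthrough genes MIA-RAB4B and RAB4B-EGLN2, and the libraries carry no strand. The recycling calls thus rested on at most 72 reads each.

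RABs of late endosomes and lysosomes gave 29 merged peaks on 7 of 9 genes, with 4 called higher and 2 lower (4 and 1 with library sums). RAB7A, the main RAB of late endosome and lysosome fusion, had 9 lactate and 14 ddH2O peaks. Its 16 windows, all intronic, included 3 called higher under both scalings, and none lower. In them 27 lactate reads stood against 13 ddH2O reads at chr3:128733932-128734521 (1.35, with library sums 1.86), 24 against 13 at chr3:128740287-128740892 (1.18, with library sums 1.70) and 6 against 0 at chr3:128743884-128744083. The RAB7A peak with the highest fold, 14.3 over input with ddH2O, had 14 and 29 reads and was not called (-0.63, with library sums -0.14). RAB9A, which returns receptors from late endosomes to the Golgi, had 1 window, intronic, at chrX:13691479-13692197, with 26 and 8 reads (1.88, with library sums 2.45) and a call of higher. RAB24, linked to autophagy, held 116 and 180 reads (0.21, with library sums 0.23) in its only window, with a fold over input of 10.7 with lactate. RAB32, which serves lysosome-related organelles, stood apart from these with an exon window at chr6:146554560-146555048 of 34 lactate and 145 ddH2O reads (-1.39, with library sums -1.20), called lower under both scalings in a window from the ddH2O list alone.

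The RABs of the endoplasmic reticulum and Golgi held 75 merged peaks on 13 of 18 genes, of which 5 were called higher and 20 lower (11 and 4 with library sums). RAB2A, which acts between the endoplasmic reticulum and the Golgi, had 4 lactate and 24 ddH2O peaks, and of its 24 windows 8 were called lower and 1 higher. With library sums 2 were called lower and 1 higher, and 16 of the 24 had a ratio below 0. The intron window at chr8:60517961-60518579 held 1 lactate and 19 ddH2O reads (-3.25, with library sums -2.46) and came from a ddH2O peak alone. Without the added read this ratio was -4.17, with an exact interval of -9.55 to -1.52. The intron peak at chr8:60593434-60593869 had the highest ddH2O fold of the group, 10.5 over input, with 7 and 25 reads (-1.42, called lower, with library sums -0.84, not called). The highest call of RAB2A held 11 and 3 reads (1.68, with library sums 2.45), and its densest window, in the 3′ UTR, held 17 and 58 (-1.24, called lower, with library sums -0.85, not called).

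RAB6A, which governs retrograde and secretory traffic at the Golgi, had ratios above 0 in 8 of its 11 windows under both scalings. Its widest merged peak, intronic at chr11:73698789-73700779, held 129 lactate and 82 ddH2O reads, a ratio of 1.40 (library sums 1.51) with an exact binomial P of 1.94e-12, and a fold over input of 15.0 with lactate and 7.60 with ddH2O. The intron window at chr11:73690346-73690617 held 12 lactate reads and no ddH2O read, and that at chr11:73701691-73702040 held 13 and 3 (1.92, with library sums 2.67), and both were called higher as well. These 2 windows came from lactate peaks alone, and the widest from peaks in both lists. With library sums RAB6A had 5 higher calls and no lower one. RAB6A has near-identical copies in RAB6C and RAB6D, for which no peak was listed, so reads in shared exon sequence may be split among them. The 3 windows called with MAnorm were intronic, and with library sums an exon window with 5 and 1 reads was called as well (2.45).

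Other Golgi members differed less or had fewer reads. RAB1B, which drives transport into the Golgi, held 129 and 230 reads in its 3′ UTR window (0.05, with library sums 0.03), and RAB34, which positions lysosomes and builds cilia, held 279 and 537 in its densest exon window (0.14, with library sums -0.08). Neither was called. RAB30 had 6 of 10 windows called lower, 4 of them in the 3′ UTR with between 3 and 8 lactate reads and between 16 and 27 ddH2O reads, and none of the 6 was called with library sums, where 1 other window was called higher. RAB39B, a neuronal RAB linked to autophagy, had an exon window at chrX:155260437-155260966 with 8 and 36 reads (-1.71, with library sums -1.18) that was called lower under both. RAB43 was called higher on 9 and 1 reads in a 3′ UTR shared with the readthrough gene ISY1-RAB43.

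Secretory RABs held 85 merged peaks on 12 of 13 genes, with 5 called higher and 18 lower (12 and 7 with library sums). RAB10, which carries vesicles such as those with glucose transporters to the surface, had 31 windows, 4 called higher and 1 lower (8 and 1 with library sums). At chr2:26057211-26057491 it had 27 lactate and 10 ddH2O reads (1.67, with library sums 2.21) and at chr2:26064733-26065266 32 and 16 (1.35, with library sums 1.82), while its lower call had no lactate read and 12 ddH2O reads. Of its 31 windows 12 overlap the RefSeq gene LOC105374333, that at 26064733 included. RAB27A, which docks secretory granules and exosome-bearing endosomes, had 7 windows, 5 of them called lower and none with a ratio above 0. The exon window of RAB27A at chr15:55205352-55205706 held 5 lactate and 31 ddH2O reads (-2.15) and was the single one also called lower with library sums (-1.55), where 5 of the 7 ratios were below 0. Its paralog RAB27B had 3 of 10 windows called lower, each with no lactate read and 7 ddH2O reads, while with library sums none was called lower and 2 higher.

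RAB8A had no window with a ratio above 0 among 6 with MAnorm scaling and 1 with library sums, and 4 were called lower. The 1 above 0 held no read in either library, so its ratio comes from the scaling alone. The exon window at chr19:16127862-16128252 held 3 lactate and 21 ddH2O reads (-2.29, with library sums -1.60), and without the added read the ratio was -2.64, with an exact interval of -5.02 to -0.89. This window came from a ddH2O peak alone. That of chr19:16129377-16129576 held 1 and 12 reads (-2.68, with library sums -1.84), and both were called lower under both scalings. Of the 6 windows, 3 lie on HSH2D-AS1 as well. RAB15 had a pair of 3′ UTR peaks that differed. The one at chr14:64945839-64946695 had the highest lactate fold of the group, 15.4 over input, with 55 and 65 reads and no call (0.39, with library sums 0.63), while that at chr14:64948673-64949692 held 3 and 25 reads and was called lower (-2.51, with library sums -1.84, without the added read -2.87, exact interval -5.24 to -1.15). This last window also came from the ddH2O list alone. RAB15 lies in a span that RefSeq shares with CHURC1-FNTB.

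Of the RAB3 genes, regulators of exocytosis, RAB3B carried several 3′ UTR peaks, RAB3D carried 1, RAB3C had a single intron peak with 2 reads and RAB3A had none. RAB3B had 7 merged peaks in its 3′ UTR, and its peak at chr1:51917575-51918438 had the highest ddH2O fold among secretory RABs, 21.8 over input, with 38 and 60 reads (-0.07, with library sums 0.22). Of the 7 windows, which held between 2 and 49 lactate and between 15 and 67 ddH2O reads, 1 was called lower, with 2 and 15 reads (-2.32, with library sums -1.55). RAB3D held 111 and 201 reads (-0.0036, with library sums 0.01) in its 3′ UTR window at chr19:11321996-11322571, with folds over input of 9.76 and 12.4, and was not called. RAB13, a tight junction RAB, had a single peak, in the ddH2O list, at 1.91-fold over input, although its window held 342 lactate and 648 ddH2O reads (0.21, with library sums -0.06). A peak in the ddH2O list alone did not therefore mean that lactate reads were missing. The 3 densest windows of this group, on RAB13, RAB3D and RAB26, were all uncalled.

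Among the remaining RABs, 31 merged peaks lay on 7 of 9 genes, with 3 called higher and 4 lower (8 and 3 with library sums). RAB28, known from cilia and photoreceptors, had the highest lactate fold of the whole family, 16.2, in an intron peak at chr4:13444982-13445881 that also reached 17.6 with ddH2O. Its window held 46 and 51 reads and was not called (0.43, with library sums 0.72). The neighbouring intron window at chr4:13443518-13443779 held 25 and 10 reads and was called higher (1.56, with library sums 2.104). All 7 RAB28 windows had ratios above 0 with library sums, and 6 did with MAnorm. RAB23, an inhibitor of Hedgehog signalling, had 2 overlapping intron windows with the same 1 lactate and 13 ddH2O reads, called lower under both scalings (-2.77, with library sums -1.94). RAB20 had a 3′ UTR window with 1 and 16 reads called lower under both (-3.03, with library sums -2.22).

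**Figure D3:**
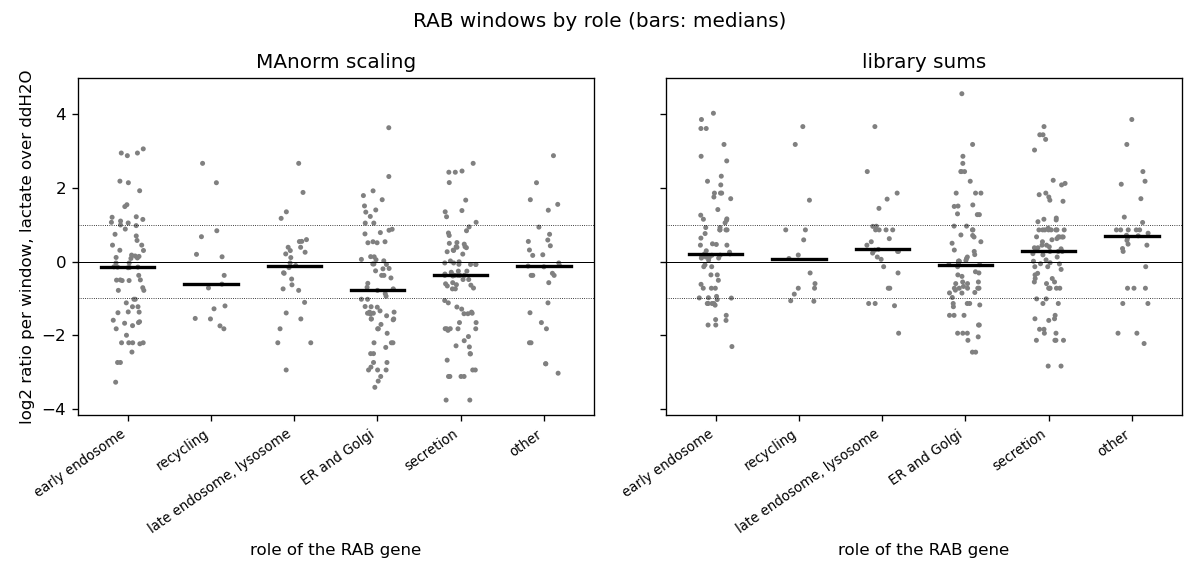
Log2 ratio of lactate over ddH2O per RAB window (points, spread sideways at random) by role, with medians as bars, for MAnorm scaling (left) and library sums (right), and dotted lines at 1 and -1. The median of the ER and Golgi group is -0.78 on the left and -0.08 on the right, and that of the late endosome and lysosome group is -0.11 and 0.33.

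The median ratio by role was -0.78 for the endoplasmic reticulum and Golgi, -0.61 for recycling, -0.37 for secretion, -0.15 for early endosomes, -0.12 for the remaining genes and -0.11 for late endosomes and lysosomes. With library sums these were -0.08, 0.09, 0.28, 0.21, 0.70 and 0.33 in the same order. The MAnorm median of the secretion group equals the ratio of a window with no read in either library. The order rests on 1 library per condition, on overlapping windows and on a few genes with many windows, RAB2A among them, and it was not tested. Against the 6.0% of all windows called higher and the 19.6% called lower, the shares were 6.67% and 26.7% for the endoplasmic reticulum and Golgi, 6.67% and 26.7% for recycling, 5.88% and 21.2% for secretion, 12.7% and 19.7% for early endosomes, 9.68% and 12.9% for the remaining genes and 13.8% and 6.90% for late endosomes and lysosomes. With library sums, against 16.7% and 5.16% of all windows, they were 14.7% and 5.33%, 13.3% and 6.67%, 14.1% and 8.24%, 25.4% and 2.82%, 25.8% and 9.68%, and 13.8% and 3.45% in the same order. These shares count from 15 to 85 windows each, and nothing particular to a role is read from them.

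The genes that act on RABs showed shares of called windows near those of all windows. A list of 115 delivery factors, exchange factors, activating proteins and effectors had 108 genes with a merged peak and 1563 merged peaks, of which 102 (6.53%) were called higher, on 37 genes, and 287 (18.4%) lower, on 70 genes, where 6.0% and 19.6% of all windows were. With library sums 259 (16.6%) were higher and 88 (5.63%) lower, against 16.7% and 5.16% of all windows. Of protein-coding genes with a window, 23.9% had a higher and 52.2% a lower one with MAnorm, at a mean of 7.70 windows per gene. Counts of genes depend on windows per gene, so the 37 and 70 genes cannot be set directly against these shares. Exchange factors had 36 higher and 69 lower of 495 (87 and 19 with library sums), activating proteins 37 and 122 of 602 (98 and 36), effectors 27 and 93 of 441 (71 and 32) and delivery factors 2 and 3 of 25 (3 and 1). GDI2, which extracts RABs from membranes, held both higher calls of the delivery factors, in overlapping intron windows that can rest on the same reads. They held 27 and 4 reads (2.71, with library sums 3.35) and 28 and 4 (2.77, with library sums 3.40). SBF2, a DENN domain protein of the exchange factor group, held 21 lactate reads and 1 ddH2O read in an exon window (3.55, with library sums 4.32, without the added read 4.48, exact interval 1.84 to 9.85). In the other direction, RABGAP1L, a GTPase-activating protein, had an intron window with no lactate read and 23 ddH2O reads, a ratio of -2.92 or lower against a floor of 3 reads (library sums -2.08 or lower). RIN2, an exchange factor for RAB5, had 2 overlapping intron windows with the same 1 and 22 reads (-3.43, with library sums -2.66, without the added read -4.37, exact interval -9.73 to -1.74). All of these were called under both scalings.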

How the data were processed

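NSUN2-bound RNA of lactate-treated and ddH2O-treated PANC-1 cells was sequenced with 1 IP and 1 input library per condition, grouped by the sample labels. The submitters' processing notes name fastp 0.20.1, HISAT2 2.1.0, MACS2 2.2.7.1, bedtools 2.29.2, HOMER 4.11.1, DiffBind and GRCh38. Per condition, the authors set the IP library against the input to call peaks, and deposited for each a fold (ratio of IP over input), a q-value and the transcript region. The authors also merged both lists with MAnorm and deposited a normalized signal (read density) for each IP library and window of 2000 bases. The M, A and P columns deposited with them hold the authors' comparison and were not used.

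Whole reads were recovered from both densities for 100% of windows, within 0.02 reads or a ten-thousandth of the count, as a density is the reads plus 1 per kb and MAnorm shifts the log2 ratio along a line in the mean log2 density (slope -0.169, intercept 0.204 as added back). Windows were called at a fold over 2 and an exact binomial P below 0.05, with the null share set by that line, over all 116484 windows, with no adjustment in the main call. Library sums add the reads of windows that may overlap. The test was checked on simulated data. Merged peaks took a gene by an overlap of at least 1 base with its called peaks. Starts of merged peaks, deposited counted from 0, are printed counted from 1. The depth of the inputs, and of the IP libraries outside the windows, is unknown. With 1 library per group, no replicate could be left out. RefSeq tables of GRCh38.p14 gave gene spans and the promoter sequence.

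Named with values were the 6 RAB genes with the most merged peaks, the 8 with the densest windows, the 8 called windows of largest and of smallest ratio with at least 20 reads, the peak of highest fold in each of 6 role groups and list, and 3 pathway windows in each direction. Windows described beside these were picked with their values in view. The members and gene lists were chosen with earlier results of these data known. Alternatives tried were a fold of at least 4 over input, a q-value below 0.05, bases covered, an overlap of 50%, library sums, an adjusted P, a fold over 4, the fold alone, at least 20 reads, 50% of a merged peak covered and no added read. Computations ran in Python 3.11.15 (scipy 1.17.1, numpy 2.4.6, pandas 2.3.3) and plots in matplotlib 3.10.9.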

Additional observations from a re-analysis of the deposited data

How the results depend on the processing

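The counts of RAB calls depended on the processing. Higher calls numbered 55 with library sums, 47 by the fold alone, 13 at a fold over 4, 12 at a Benjamini-Hochberg adjusted exact binomial P below 0.05 and 12 with at least 20 reads, against 27. Lower calls numbered 18 with library sums, 112 by the fold alone, 40 with no read added, 37 at a fold over 4, 32 at the adjusted P and 26 with at least 20 reads, against 62. In the pathway list library sums gave 259 higher and 88 lower calls. Peaks with a fold over input of at least 4 numbered 50 with lactate, on 20 RAB genes, and 95 with ddH2O, of which 11.6% were exonic and 18.9% in 3′ UTRs. At a q-value below 0.05 they numbered 61, on 23 genes, and 137, of which 61.3% were intronic and 21.9% in 3′ UTRs. An overlap of 50% of both peaks left 39.7% of lactate and 19.2% of ddH2O peaks shared. Of the 22 windows taken by the largest and smallest ratios, 21 kept their call with library sums and 1, on RAB17 (-1.06), lost it. Over all RAB windows 26 of the 27 higher calls held with library sums, the exception being the exon window of RAB31 (0.47), but 18 of the 62 lower calls did. Lower calls were lost in 9 of 11 windows of RAB31, 6 of 8 of RAB2A, among them its 3′ UTR (-0.85) and an intron (-0.84), 6 of 6 of RAB30, 4 of 5 of RAB27A, 3 of 3 of RAB27B, 2 of 2 of RAB22A, 2 of 2 of RAB39A, 2 of 3 of RAB35, 2 of 3 of RAB8B, 2 of 4 of RAB8A, and 1 each of RAB5B (-0.99), RAB17, RAB18, RAB32, RAB36 and RAB42. Of these 44 lost lower calls, 29 kept a library-sum ratio below -1 and lost the call through P alone, such as the 3 of RAB27B (-2.14), and 19 had no lactate read. The cause of these changes was not tested, other than the fewer peaks or windows that a stricter filter leaves and the change of scaling. Library sums shift all windows by the same log2 amount, 0.863, whereas the MAnorm shift follows a line in the mean log2 density. The scalings therefore differ by window. The RAB42 window with 5 and 17 reads went from -1.39 to -0.72, and the exon window of RAB31 went from 1.05 to 0.47. No paired analysis was possible because each group had 1 library. The median window held 6 lactate and 8 ddH2O reads, which limits single calls.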

Other observations

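Loci named after RAB genes but left out by the rule were looked at after their values were seen. The long non-coding RNA RAB30-DT, divergent from RAB30, had 8 merged peaks, 2 called lower with MAnorm scaling, where 19.6% of all windows were, and 3 higher and 1 lower with library sums. Its densest window held 58 lactate and 364 ddH2O reads, a log2 ratio of -1.79 (library sums -1.77) that was called lower under both scalings. RAB33B-AS1 had 11 merged peaks, 3 called lower (2 with library sums), and its densest window held 2 and 48 reads and was called lower under both (-3.80, library sums -3.17), while RAB33B itself had no peak. RAB4A-AS1 had 3 of 4 merged peaks called lower, and none with library sums. Of the RAB-like genes, RABL6 held 253 and 289 reads in its densest window (0.80, library sums 0.67, not called), with 1 of 5 merged peaks called higher under either scaling. RABL2A had 2 of 4 called lower (1 with library sums), RABL2B had 1 higher and 1 lower of 4 (2 higher with library sums) and RABL3 had none called of 3 (2 higher with library sums). Without strand in the libraries, reads of an antisense RNA and of the gene it overlaps cannot be told apart.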
